A study of Mus musculus with 2 samples.

Results

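Mitochondrial ribosomal protein genes were examined in Ago2 RNA immunoprecipitation (IP) libraries of TM4 cells, an immortalised mouse Sertoli cell line. Members were chosen by symbol alone, as every gene whose name starts with Mrpl or Mrps followed by a number. This gave 76 of the 22609 genes in the tables, of which 47 were large subunit (Mrpl) and 29 small subunit (Mrps) genes. 1 library came from TM4 cells transfected with miR-471-5p mimic and 1 from TM4 cells transfected with scramble, and in both cases Ago2 was precipitated 48 h after transfection. Total RNA of the same cells was not analysed here, so the amount of an mRNA in the cells and its association with Ago2 cannot be told apart. With 1 library per condition no difference has a replicate check and no p-value is given.

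The mitochondrial ribosome makes the few proteins that are encoded by mitochondrial DNA, all of them core parts of the respiratory chain and of ATP synthase. Its ribosomal RNAs are transcribed inside the organelle, whereas its proteins are encoded in the nucleus, translated in the cytosol and imported. Some of these proteins descend from those of the bacterial ribosome, and others exist only in mitochondria. Ago2 is the protein that holds a miRNA and brings it to mRNAs that pair with its seed, and the comparison of the mimic and scramble profiles was made to find mRNAs bound under miR-471-5p.

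The mimic library held 18628310 reads on genes and the scramble library 18717225. A count of 3 reads, taken as the smallest detectable amount, was equal to 0.161 and 0.16 CPM (reads of a gene scaled to a library of 1000000 reads on genes). Of 14 Sertoli cell markers, 7 had at least 20 reads over both libraries, with Kitl (12245 reads in mimic, 16163 in scramble) and Sox9 (1228 and 1070) the highest. Amh had 5 reads in each library, and Fshr and Krt18 had 0, so part of the Sertoli signature was not detectable at this depth. Markers of germ cells, Leydig cells and macrophages together stayed low, and their summed levels ran from 1.4 CPM for macrophages in the mimic library to 7.59 CPM for germ cells in the scramble library.

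The sequence of the transfected miRNA and its matches in the mitochondrial ribosomal protein mRNAs are shown first, since the mimic is what the design varied. In the mature miR-471-5p below, from RefSeq on GRCm38.p6 (chrX:66792634-66792655, minus strand), capitals mark the seed, nucleotides 2 to 8.

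miR-471-5p: uACGUAGUauagugcuuuucac

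The 7 nucleotides of mRNA that pair with this seed read ACTACGT. They were found in the longest annotated 3′-UTR of 2 of the 76 genes, or 2.63%, against 1.55% of the 10715 tested genes with a 3′-UTR. The longest annotated coding regions held the match in 3 of the 76 genes, or 3.95%, against 4.5% of 10729 tested genes. These 5 sites are printed with their flanks, from GENCODE M21 transcripts of GRCm38, with the match in capitals.

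Mrpl11, 3′-UTR, position 1604 of 2220: gcaggcaaaacACTACGTagtaaatctat
Mrpl17, 3′-UTR, position 2825 of 6651: cttgatgctccACTACGTggtgcctctca
Mrpl12, coding region, position 461 of 606: ggagatcaagaACTACGTccagggcatca
Mrpl27, coding region, position 176 of 447: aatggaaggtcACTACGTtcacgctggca
Mrps18b, coding region, position 488 of 765: tcttctcagttACTACGTcccccaggttg

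Positions are counted from the first base of the 3′-UTR or of the start codon. The Mrpl11 match is followed by A, the longer form of the site. Mrpl11 had 876 mimic and 780 scramble reads. Its log2 ratio, mimic over scramble after scaling with the TMM method of edgeR, was 0.17 (95% interval 0.03 to 0.31). Intervals of log2 ratios were derived by the exact Clopper-Pearson method from how a gene's reads split between the libraries, and they cover counting error only. Mrpl17 had 873 and 725 reads (log2 ratio 0.27, interval 0.12 to 0.41). The coding region carriers stood higher, with log2 ratios of 0.54 for Mrps18b, 0.59 for Mrpl12 and 1.12 for Mrpl27. The family's median was 0.40, above both 3′-UTR carriers and below the coding region carriers. Mrpl14 (1.17), Mrpl33 (1.11) and Mrpl34 (1.05) carry no 7-nucleotide match. Mrps18b had 418 and 288 reads (interval 0.32 to 0.76). Exons of Gm16279 overlap 59.1% of its exon bases, so its count is uncertain. A relation between matches and log2 ratios was not tested.

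The family as a whole was higher in the mimic library. Its 76 genes took 47845 reads, or 0.257% of reads on genes (exact 95% interval 0.255 to 0.259%), in the mimic library and 38343 reads, or 0.205% (0.203 to 0.207%), in the scramble library. The log2 ratio of these sums was 0.32 (counting interval 0.30 to 0.34), and without Mrpl44, the gene with the most reads, it was 0.37 (0.35 to 0.39). 75 of the 76 genes had at least 20 reads over both libraries and were compared with all 12186 genes that did. Of the 75 genes, 70 had a log2 ratio above 0, against 49.9% of all tested genes. The counting interval lay wholly above 0 in 56 genes and wholly below 0 in 1, against 31.5% and 32.5% of all tested genes.

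The sizes of the differences were moderate. The median log2 ratio of the 75 genes was 0.40, against -0.00063 over all tested genes, whose 5th and 95th percentiles were -0.80 and 0.91. At least 1.5-fold higher in the mimic library were 22 of the 75 genes, against 11.7% of all tested genes, and 0 were at least 1.5-fold lower, against 9.11%. 2-fold was reached by 4 genes in the higher direction (3.96% of all tested genes) and by 0 in the lower (3.08%). At a lower limit, a log2 ratio of 0.32 in either direction, the numbers were 45 higher (24% of all tested genes) and 1 lower (21.6%).

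Both subunits were displaced in the same direction. The 46 tested large subunit genes had a median log2 ratio of 0.42, with 43 above 0 and 15 at least 1.5-fold higher. The 29 small subunit genes had a median of 0.35, with 27 above 0 and 7 at least 1.5-fold higher. Over all tested genes these shares were 49.9% above 0 and 11.7% at least 1.5-fold higher. The quartiles were 0.25 and 0.71 in the large subunit and 0.18 and 0.57 in the small subunit, so the ranges overlapped over most of their width. The order of the medians was not stable, since with at least 200 reads per gene they were 0.43 and 0.48. The reads of the large and small subunit genes summed to log2 ratios of 0.29 (0.27 to 0.32) and 0.37 (0.34 to 0.41). This order was opposite to that of the medians. Mrpl44, level at 5869 and 5864 reads, made up part of the large subunit sums of 32540 and 26525 reads. Sums without Mrpl44 were not compared between the subunits, and the difference between the subunits was not tested.

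**Figure D1:**
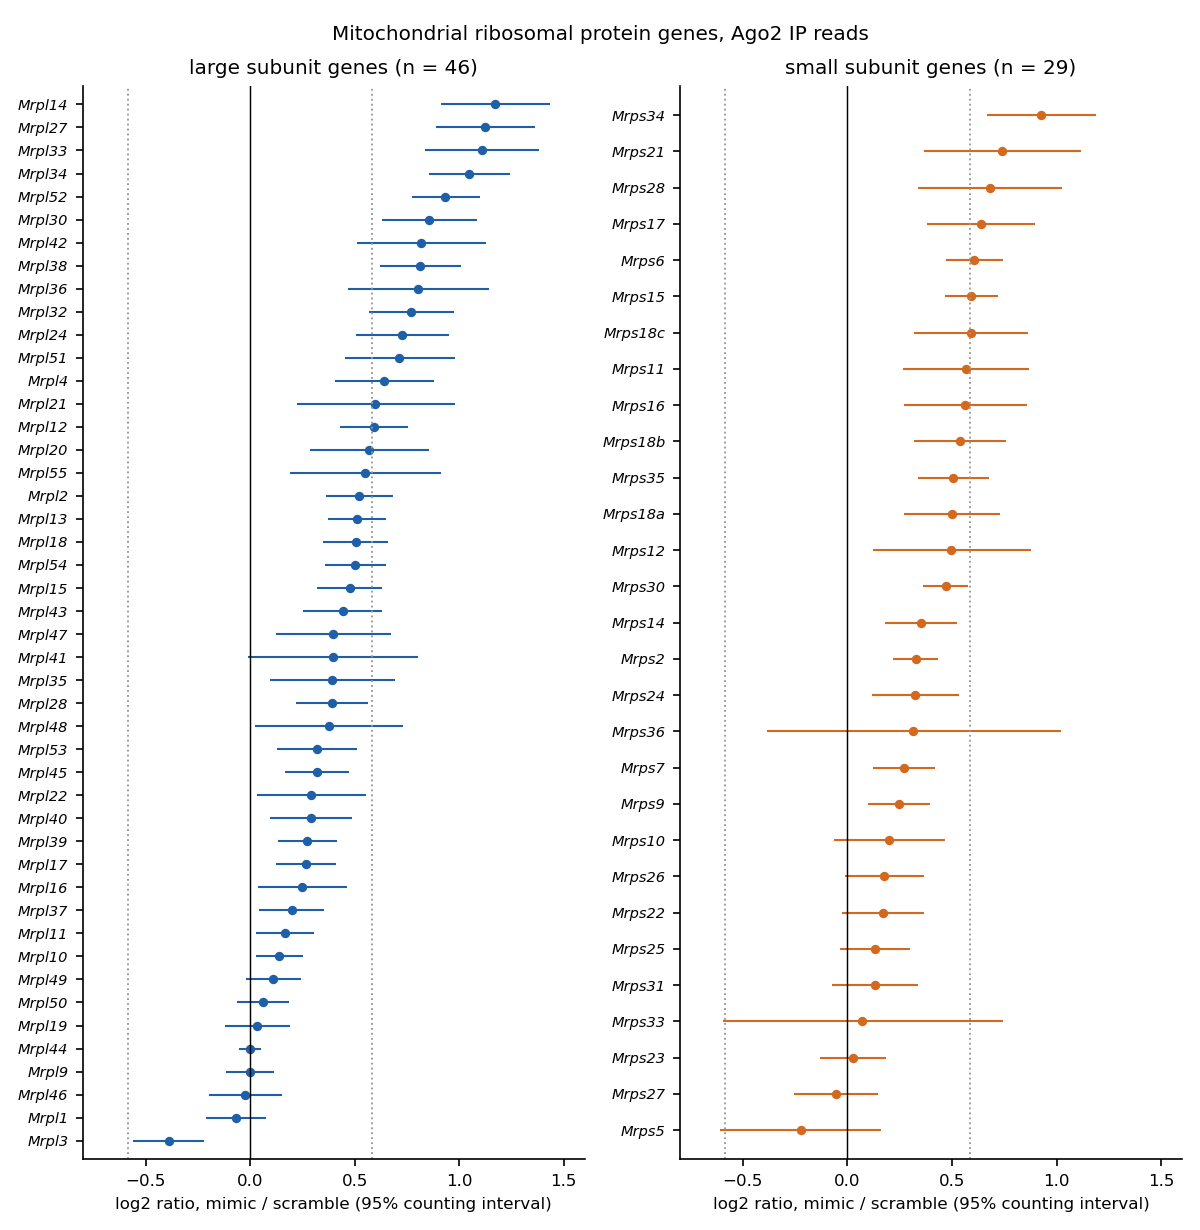
Log2 ratio of mimic to scramble reads (x axis) for each tested large (left, 46 genes) and small (right, 29 genes) subunit gene, with points for the ratio and lines for the 95% counting interval, and dotted lines at 1.5-fold in either direction. Only Mrpl3 has an interval wholly below 0, while 56 genes have one wholly above 0.

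The highest log2 ratios belonged to short proteins of the large subunit with bacterial counterparts. Mrpl14, which lies at the interface between the subunits, had 399 mimic and 177 scramble reads, and its log2 ratio was 1.17 (0.91 to 1.44). Mrpl27, whose bacterial counterpart reaches towards the peptidyl transferase centre, had 469 and 215 reads and a log2 ratio of 1.12 (0.89 to 1.36). Mrpl33 had 356 and 165 reads (1.11, interval 0.84 to 1.38), and Mrpl34 had 674 and 326 (1.05, interval 0.85 to 1.24). These 4 genes were the ones past 2-fold, and they lay between percentiles 96.3 and 97.1 of all tested genes. Parts of Mrpl27 and Mrpl33 have copies elsewhere: 32.4% and 30.3% of the 50-nucleotide stretches of their transcripts also occur in transcripts of another gene in GENCODE M21. No such stretch was found for Mrpl14 or Mrpl34.

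Mrpl52 came next, a protein found only in mitochondria, with 910 and 476 reads and a log2 ratio of 0.93 (0.77 to 1.10). Mrpl30 had 453 and 250 reads (0.86, interval 0.63 to 1.09). In order of their log2 ratios, Mrpl42 (247 and 140 reads), Mrpl38 (598 and 340), Mrpl36 (206 and 118), Mrpl32 (550 and 322), Mrpl24 (446 and 269) and Mrpl51 (320 and 195) followed, from 0.82 down to 0.71. Mrpl32 is known as a substrate that the mitochondrial m-AAA protease must cleave before the ribosome can be assembled. The last large subunit genes past 1.5-fold were Mrpl4 (387 and 248 reads, 0.64), Mrpl21 (150 and 99, 0.60) and Mrpl12 (773 and 513, 0.59). Mrpl21 had few reads and an interval from 0.22 to 0.98, whereas that of Mrpl12 ran from 0.43 to 0.75.

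Among small subunit genes Mrps34, a protein specific to mitochondria, was the highest, with 361 mimic and 190 scramble reads (log2 ratio 0.93, interval 0.67 to 1.19). Exons of Mapk8ip3 overlap 62.7% of its exon bases, so its count is uncertain. Mrps21 had 162 and 97 reads (0.74), Mrps28 had 186 and 116 (0.68), and Mrps17 had 322 and 207 (0.64). Mrps6, Mrps15 and Mrps18c lay just past 1.5-fold, with log2 ratios of 0.61, 0.59 and 0.59. The counts behind the first pair were large, 1126 and 739 reads for Mrps6 and 1306 and 866 for Mrps15, so their intervals were narrow (0.47 to 0.74 and 0.47 to 0.72). Mrps6 shares 36.1% of its exon bases with exons of other genes, Slc5a3 among them, and reads there could be dropped or counted for either gene.

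At the other end, 5 genes had a log2 ratio below 0. Mrpl3, a protein of the peptidyl transferase region, was the only one whose interval excluded 0, with 509 mimic and 666 scramble reads (-0.39, interval -0.56 to -0.22). For Mrps5, a protein at the mRNA entry, the counts were 108 and 126 (-0.22, interval -0.61 to 0.16). Mrpl1, of the L1 stalk that guides the leaving tRNA, had 792 and 830 reads (-0.07), Mrps27, an RNA-binding protein with pentatricopeptide repeats, had 398 and 413 (-0.05), and Mrpl46 had 535 and 543 (-0.02). Mrpl9 and Mrpl44 were level, with 1219 and 1218 reads and with 5869 and 5864 reads. Mrpl44, a protein with a ribonuclease III fold, had the most reads of the family and an interval from -0.05 to 0.05.

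Between these ends lay most of the family, described here by place in the ribosome. The stalk recruits translation factors to the large subunit. Its genes Mrpl10, Mrpl11, Mrpl12, Mrpl53 and Mrpl54 were all above 0, from 0.14 in Mrpl10 (1311 and 1189 reads) to 0.59 in Mrpl12, and Mrpl54 had 932 and 658 reads (0.50). At the exit of the peptide tunnel, where new proteins meet the inner membrane, 5 of 6 genes were tested, and they ran from 0.27 in Mrpl17 to 0.73 in Mrpl24, with Mrpl22 at 0.29, Mrpl45 at 0.32 and Mrpl47 at 0.40. The central protuberance, a bridge to the small subunit, had 5 of 6 genes above 0, with Mrpl46 the lowest and Mrpl27 the highest. In that group Mrpl18 had 809 and 570 reads (0.50), Mrpl40 482 and 394 (0.29) and Mrpl48 156 and 120 (0.38). Along the path of the mRNA through the small subunit, Mrps28 was the highest and Mrps5 the lowest, and Mrps11 (0.57), Mrps12 (0.50), Mrps24 (0.32) and Mrps7 (0.27) lay between. Mrps12 is the counterpart of the bacterial decoding protein that streptomycin resistance mutations alter.

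The remaining large subunit genes all had log2 ratios above 0. Mrpl20 (257 and 173 reads, 0.57), Mrpl55 (161 and 110, 0.55), Mrpl2 (787 and 548, 0.52), Mrpl13 (1044 and 733, 0.51) and Mrpl15 (810 and 582, 0.48) stood above the family's median. Mrpl43, Mrpl41, Mrpl35 and Mrpl28 lay between 0.39 and 0.44. Mrpl16, Mrpl39 and Mrpl37 lay between 0.20 and 0.27, and Mrpl49, Mrpl50 and Mrpl19 between 0.04 and 0.11 with intervals that included 0. Among the small subunit genes not yet given, Mrps16 (241 and 163 reads, 0.56), Mrps35 (686 and 483, 0.51) and Mrps18a (376 and 266, 0.50) were near the top. Mrps30, which structures place in the large subunit in spite of its name, had 1676 and 1209 reads (0.47, interval 0.36 to 0.58). Mrps2 (1603 and 1278, 0.33) and Mrps14 (630 and 494, 0.35) were intermediate. Mrps9 had 823 and 693 reads (0.25), and Mrps10, Mrps22, Mrps25, Mrps26, Mrps31, Mrps23 and Mrps33 lay between 0.03 and 0.20 with intervals that included 0. Mrps36, which is now known to belong to the 2-oxoglutarate dehydrogenase complex, had 41 and 33 reads.

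Proteins classed as having a bacterial counterpart had larger medians than those classed as specific to mitochondria. In this classing Mrps18a and Mrps18b were placed with the specific proteins and Mrps18c with those that have a counterpart. For this split Mrps30 and Mrps18a were counted in the large subunit, where structures place them, and Mrpl55 and Mrps36 were in no class. In the large subunit the median log2 ratio was 0.51 over 28 tested genes with a counterpart and 0.38 over 19 genes specific to mitochondria. For the small subunit it was 0.53 over 16 genes and 0.15 over 10. 15 of the 16 small subunit genes classed with a counterpart were above 0 (49.9% of all tested genes) and 6 were at least 1.5-fold higher (11.7%). Of the 10 specific genes 9 were above 0. In that group 1 gene, or 10%, was at least 1.5-fold higher, near the share over all tested genes. Coding length differed along with this split, with a median of 532.5 nucleotides in the former and 711 in the latter small subunit group. After the regression on coding length described next, the medians were 0.15 and -0.02 in the small subunit and 0.20 and 0.12 in the large subunit.

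Transcript length moved with the log2 ratio over all genes. Coding lengths from GENCODE M21 were found for 10728 of the 12186 tested genes and for all 76 family members. Across the 10728 genes the Spearman correlation of log2 ratio with coding length was -0.40 and with transcript length -0.44, as a description, since genes of the same libraries are not independent. Over the 75 family members the values were -0.47 and -0.51. The family's genes are short, with a median coding length of 591 nucleotides, against 1434 over the tested genes with a length. Within the family, the 22 genes at least 1.5-fold higher had a median coding length of 442.5 nucleotides and the other 53 of 621, and their median 3′-UTR lengths were 272.5 and 635 nucleotides.

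Short genes outside the family were higher in the mimic library too. The genes were put in 5 groups of equal size by coding length. In the shortest group, of up to 795 nucleotides, the 2092 genes outside the family had a median log2 ratio of 0.29 and 76% of them were above 0. The 54 family members there had a median of 0.50, and all 54 were above 0. In the next group, from 795 to 1218 nucleotides, the medians were 0.25 for 17 family members and 0.10 for 2128 other genes. The 4 members in the middle group had a median of 0.07, and 2 of these 4 were above 0. Grouped by transcript length instead, 49 of the 75 family members lay in the shortest group, of up to 1761 nucleotides. Their median was 0.51, against 0.33 for the 2097 other genes there. From 1761 to 2592 nucleotides, the medians were 0.27 for 8 family members and 0.08 for 2137 other genes. Family members were also found among longer transcripts. Their medians were 0.43 over 6 members in the middle group, 0.28 over 8 in the next and 0.20 over 4 in the longest. The other genes of these groups of longer transcripts had medians of -0.03, -0.13 and -0.23. When a quadratic regression of the log2 ratio on log2 coding length over the 10728 genes was subtracted, the family's median was 0.16, with 52 of 75 genes above 0 (48.2% of the 10728 genes). After this step 4 of the 75 were at least 1.5-fold higher, against 8.7% of the 10728 genes, and 0 at least 1.5-fold lower, against 8.56%. Those 4 were Mrpl14 (0.78), Mrpl38 (0.75), Mrpl27 (0.74) and Mrps34 (0.68), the last with the overlap given above. This regression explained 11.9% of the variance. The same regression on log2 transcript length explained 14.4%, and after it the family's median was 0.15. Of the 75 genes, 47 were then above 0, against 5119 of the 10728 genes. The part of length in the family's difference was not tested further.

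**Figure D2:**
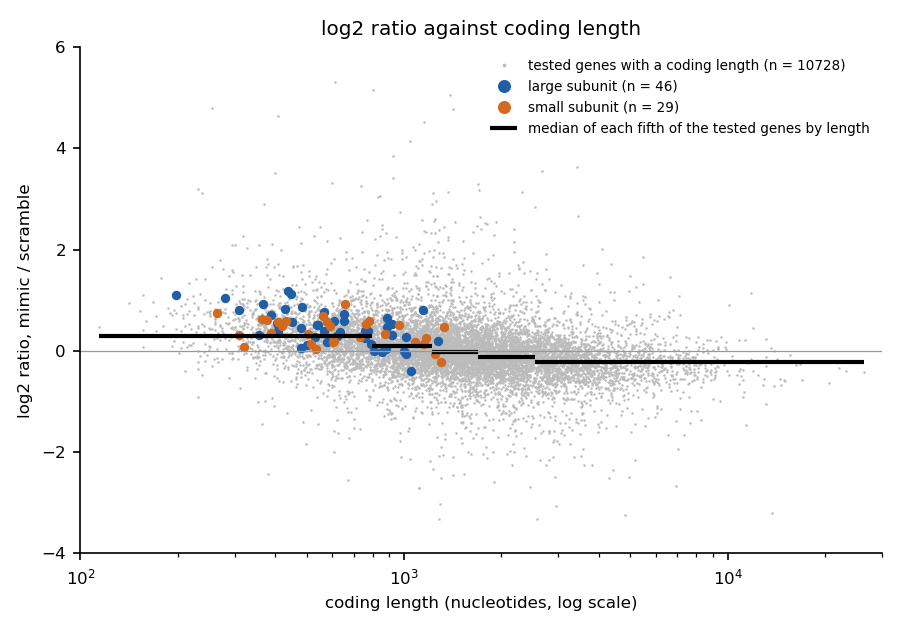
Log2 ratio of mimic to scramble reads (y axis) against coding length in nucleotides (x axis, log scale) for 10728 tested genes (grey), 46 large subunit genes (blue) and 29 small subunit genes (orange), with black lines at the median of each of 5 length groups. The medians go from 0.30 in the shortest group to -0.22 in the longest, and 54 of the 75 family members lie in the shortest.

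Levels per length differed widely between members and much less between the libraries. As CPM per kilobase of coding length, here with TMM-scaled library sizes, the 76 genes had medians of 42 (mimic) and 30.6 (scramble), against 24.6 and 24.9 over the tested genes with a length. Mrpl44 was the highest in both, at 314 and 313, and it alone gave 12.3% and 15.3% of the family's reads. By the mean of the libraries Mrps6 (159 and 105), Mrpl50 (119 and 114), Mrpl54 (122 and 86.4) and Mrpl49 (106 and 98.4) followed on the same scale. In the mimic library alone Mrpl52 (133) and Mrpl34 (129) came directly after Mrps6, with 69.7 and 62.6 in the scramble library. At the low end stood Mrpl23 (0.825 and 0.206), Mrps5 (4.45 and 5.2), Mrps36 (7.1 and 5.72), Mrps33 (6.84 and 6.51) and Mrpl21 (12.3 and 8.15). Mrpl50 and Mrpl49 have long 3′-UTRs, and per kilobase of transcript their levels were 27.1 and 25.9 and 30.2 and 27.9, whereas Mrpl44 remained the highest at 221 in both libraries. The order of the genes was close in the 2 libraries (Spearman correlation of 0.95 over 76 genes, as a description).

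**Figure D3:**
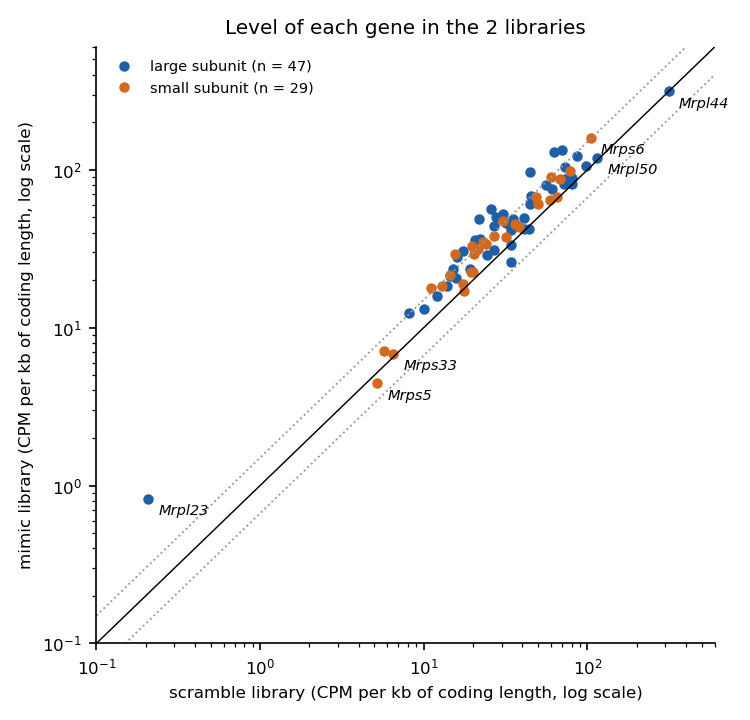
Level of each of the 76 genes in the scramble library (x axis) and in the mimic library (y axis), both as CPM per kilobase of coding length on log scales, with the solid line at equal levels and dotted lines at 1.5-fold. Large subunit genes are blue and small subunit genes orange, and most points lie above the solid line, while Mrpl44 lies on it.

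Mrpl23 was the only member left out of the comparison, with 8 mimic and 2 scramble reads. The ratio of these counts has a log2 interval from -0.33 to 5.27 and shows no direction. In its transcript, 66.7% of the 50-nucleotide stretches also occur in the pseudogene Mrpl23-ps1, and the counts leave out reads with several alignments. Over 20% of such stretches were shared with another gene in 11 members, and in 12 members over 20% of the exon bases overlapped exons of another gene. Mrpl53, for example, lies entirely inside other annotated transcripts of GENCODE M21. For these genes the counts are uncertain, since the annotation that the authors counted on was not given in the sources used here. The 39 members with under 5% of either kind had a median log2 ratio of 0.39. Of these 39, 36 were above 0 (49.9% of all tested genes) and 10 at least 1.5-fold higher (11.7%).

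Promoters were searched for motifs of factors that are known to drive nuclear genes for mitochondrial proteins. The windows ran from 250 bases before to 50 bases after the RefSeq start on GRCm38.p6, and 67 of the 76 genes had 73 windows. The core of the NRF1 motif, GCATGCGC, was searched on both strands, where it overlaps itself, and was in 8 of the 73 windows, or 11%, against 2.71% of all 32851 windows. For CCGGAAGT, the ETS motif bound by GABPA, the shares were 16.4% and 3.89%, and for AAGATGGC, a form of the YY1 motif, 16.4% and 2.75%. The GC box GGGCGG was in 52.1% and 35.7%. Windows of 30 bases from members at both ends of the family's range are printed with the motif in capitals, each 5′ to 3′ along its gene.

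Mrpl33, NRF1 core on the opposite strand, chr5:31613928-31613957, plus strand: taccggaacccGCGCATGCcccggaagtag
Mrpl32, NRF1 core, chr13:14613041-14613070, minus strand: gcggacttaacGCATGCGCtcagcccgcgt
Mrpl9, NRF1 core, chr3:94443299-94443328, plus strand: ggcgcagctgcGCATGCGCggggtccttct
Mrpl27, ETS motif, chr11:94653725-94653754, plus strand: gtccgcaagacCCGGAAGTagatctatccc
Mrpl52, ETS motif on the opposite strand, chr14:54426899-54426928, plus strand: gggccacgcccACTTCCGGttcccttgctc
Mrpl3, ETS motif, chr9:105053238-105053267, plus strand: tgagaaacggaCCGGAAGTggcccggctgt
Mrpl42, YY1 motif, chr10:95501904-95501933, minus strand: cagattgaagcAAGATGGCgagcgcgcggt
Mrps27, YY1 motif, chr13:99344789-99344818, plus strand: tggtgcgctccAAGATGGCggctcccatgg

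Members with a motif spanned the range of the family. The ETS motif was found both in Mrpl27, at a log2 ratio of 1.12, and in Mrpl3, the lowest member at -0.39. The NRF1 core was found in Mrpl33 (1.11) and in Mrpl9 (0.00055), and the YY1 motif in Mrpl42 (0.82) and Mrps27 (-0.05). Over the 29 genes with the NRF1 core, the ETS or the YY1 motif the median log2 ratio was 0.39, and over the 37 tested genes with a window and none of these it was 0.35. A match is a stretch of letters and not a shown binding site.

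Other genes of mitochondrial translation were set beside the family, with no test of the differences between lists. The 7 ribosomal proteins that carry other symbols had a median log2 ratio of 0.43, close to that of the family before any adjustment for length. Of these 7, 5 were above 0 (49.9% of all tested genes) and 2 at least 1.5-fold higher (11.7%). Aurkaip1 was the highest of them (480 and 260 reads, 0.88), followed by Gadd45gip1 (1227 and 762, 0.69), while Dap3 (1732 and 1743, -0.01) and Ptcd3 (1031 and 1184, -0.20) were not above 0. The 13 translation factors and related proteins had a median of -0.09, with 6 above 0, 0 at least 1.5-fold higher and 1 at least 1.5-fold lower. Oxa1l, the insertase that takes up the new proteins, was the highest of this list (3049 and 2438 reads, 0.32), and Taco1, the activator of Cox1 translation, the lowest (27 and 45 reads, -0.74). Assembly and rRNA modification factors, 16 in all, had a median of 0.14 with 0 past 1.5-fold in either direction, from Dhx30 (-0.44) to Mtg1 (0.35).

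Of the 20 genes that charge mitochondrial tRNAs, 7 were above 0 and the median was -0.08. The ends of this list were far apart, with Cars2 at 510 and 201 reads (1.34, the one gene at least 1.5-fold higher) and Lars2 at 3217 and 7960 reads (-1.31, the one gene at least 1.5-fold lower). Maintenance and expression of mitochondrial DNA was represented by 11 genes with a median of 0.08, from Polg, the catalytic subunit of the DNA polymerase (-0.65), to Ssbp1, the single-strand binding protein (0.58). The 9 regulators of mitochondrial biogenesis had a median of -0.12, with 2 above 0 and 0 past 1.5-fold. Gabpa had 2032 and 2942 reads (-0.53), Nrf1 had 1140 and 1236 (-0.12), Yy1 had 1824 and 1925 (-0.08), and Myc was the highest at 0.11. These lists differ in length from the family, with median coding lengths of 1302 nucleotides for the translation factors, 1698 for the tRNA synthetases and 1365 for the regulators. After the regression on coding length the medians were -0.13 for the translation factors, 0.05 for the assembly factors, -0.0012 for the tRNA synthetases, -0.0078 for the maintenance genes and -0.07 for the regulators, beside 0.16 for the family. After the regression on transcript length they were, in the same order, -0.11, -0.12, -0.11, -0.07 and -0.06, beside 0.15. For the ribosomal proteins with other symbols a length was found for 5 of the 7. The median of these 5 after the regression on coding length was -0.07, with 2 above 0. After the regression on transcript length it was 0.14, with 3 above 0. Whether they stayed close to the family thus depended on the length used. Lengths were also incomplete for the assembly factors (13 of 16) and the maintenance genes (10 of 11).

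A pair of families of similarly short genes were set beside the mitochondrial ribosomal proteins. The 76 tested cytosolic ribosomal protein genes had a median log2 ratio of 0.55. In that family 72 were above 0 (49.9% of all tested genes) and 36 at least 1.5-fold higher (11.7%). The 78 tested nuclear genes for respiratory chain and ATP synthase subunits had a median of 0.51, with 69 above 0 and 32 at least 1.5-fold higher. Median transcript lengths were 833 and 863 nucleotides in these families and 1280 in the mitochondrial ribosomal proteins. After the regression on coding length their medians were 0.24 and 0.14, beside 0.16 for the mitochondrial ribosomal proteins. After the regression on transcript length they were 0.14 and 0.04, beside 0.15, so the order of the families depended on the length used. The differences between the families were not tested.

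**Figure D4:**
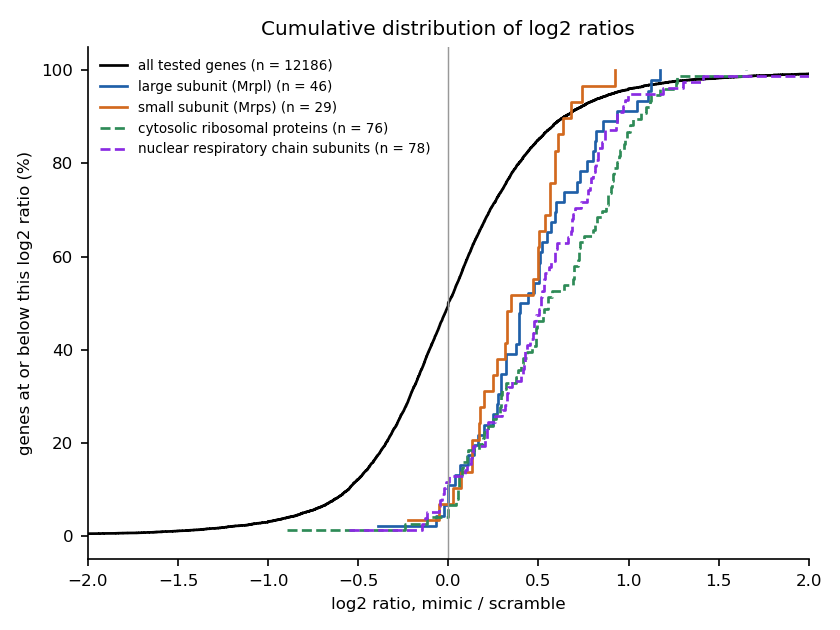
Percentage of genes (y axis) at or below each log2 ratio of mimic to scramble reads (x axis) for all 12186 tested genes, the 46 large and 29 small subunit genes, the 76 cytosolic ribosomal protein genes and the 78 nuclear respiratory chain genes. All 4 families lie to the right of all tested genes, and the 2 subunits of the mitochondrial ribosome run close together.

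**Figure D5:**
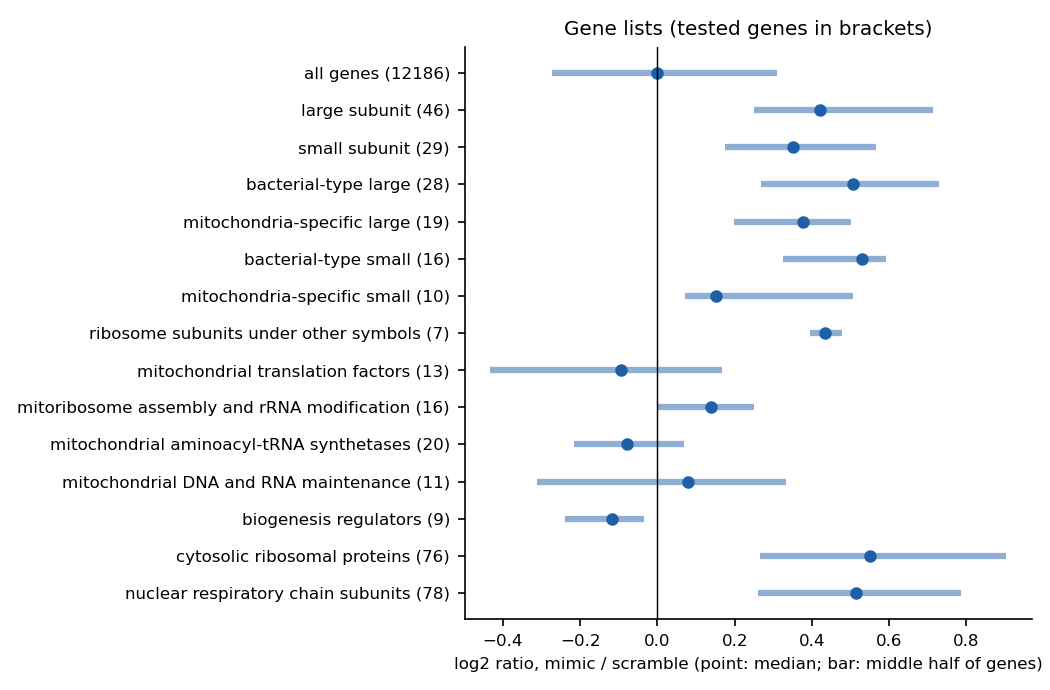
Median log2 ratio of mimic to scramble reads (points) and quartiles (bars) for each gene list, with the number of tested genes in brackets. The medians of both subunits and of the cytosolic ribosomal protein and respiratory chain lists lie between 0.35 and 0.55, and those of the translation factors, tRNA synthetases and regulators lie below 0.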

How the data were processed

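For each library the authors deposited a table of unnormalised gene counts, made from Ago2 IP RNA prepared with Illumina TruSeq protocols. The submitters' processing notes name CASAVA 1.8.2, TopHat2 2.0.8b, HTSeq and the mouse build mm9. The annotation counted on and the strand setting are not given in the sources used here. The 5 closing summary rows, which hold 47.3% of entries in the mimic table and 44.1% in the scramble table, were left out of library sizes.

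Comparisons took in genes whose counts summed to 20 or more. TMM factors from edgeR 4.0.16 under R 4.3.3 scaled the libraries, and log2 ratios carry no pseudocount. Intervals of 95% came from scipy 1.17.1 and cover counting error only, since PCR reads are not independent molecules. The calculation of the intervals was run on simulated counts that held counting error alone. That run could not test PCR copies or variation between cultures. With 1 library per condition no model could be fitted. A gene counted as higher or lower at a fold of 1.5. Lengths, seed matches and shared sequence came from GENCODE M21 (GRCm38), matched by symbol, and no coordinates were carried over from mm9.

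Members and lists were chosen with earlier results of these data known. Genes were named as the 6 highest and 6 lowest members with at least 200 counts, the 5 with the most and the fewest reads per coding length, every member past 1.5-fold, under 20 counts or with a seed match, and the ends of each other list. The remaining members were named after their values were seen. Other scalings (DESeq2 1.42.0 size factors, total reads), count filters, folds, subunit assignments and regressions on coding and on transcript length were tried.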

Additional observations from a re-analysis of the deposited data

Results flagged for a closer look

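Reads aligned to more than one place lie outside every comparison above, and they took a larger share of the entries in the mimic table (39.8%) than in the scramble table (35.6%).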

How the results depend on the processing

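With DESeq2 size factors or total reads in place of TMM, every tested member's log2 ratio stayed within its counting interval, and the family's medians and counts were within the limits set for them. Medians and counts also moved by less than their limits with no count filter, with at least 200 counts, and with Mrps30 and Mrps18a moved to the large subunit and Mrps36 left out. The limit for medians still let through a move of the small subunit median from 0.35 to 0.48 with at least 200 counts. There it passed the large subunit median of 0.43. No member carried a pseudogene symbol, so leaving those out changed nothing. Among the settings of this section the regression on coding length moved the medians the most. The median fell from 0.40 to 0.16 over all members, from 0.42 to 0.18 in the large and from 0.35 to 0.14 in the small subunit. Members at least 1.5-fold higher numbered 4 in place of 22. This regression moved 47 of 75 single log2 ratios out of their counting intervals and turned no member past 1.5-fold to the other sign. A fold of 2 gave 4 higher members, and a log2 limit of 0.32 gave 45 higher and 1 lower. In the 39 members with little shared or overlapping sequence, an alternative chosen after seeing the data, 10 were at least 1.5-fold higher and the share of mimic reads was 0.128%, as fewer genes were counted. No paired analysis was possible because each condition has 1 library. Without replicates, none of these settings measures variation between cultures.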
